A study of Mus musculus with 12 samples.

Results

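The signalling lymphocytic activation molecule (SLAM) receptors are immunoglobulin-superfamily proteins of leukocyte surfaces, and their transcripts were followed here in a mouse dendritic cell line given T cell vesicles. The 6 genes Slamf7, Slamf8, Slamf9, Cd84, Ly9 and Cd48 were picked by symbol from the 9 family genes found in the count table, and made up 6 of its 42687 gene identifiers. They were chosen from the family with earlier expression results of the same libraries known, so their calls are a description and do not stand as independent evidence. The choice applied no threshold on a value, so no gene lies just inside or just outside one. The family genes not listed, Slamf1, Slamf6 and Cd244a, are given beside them.

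Most SLAM receptors bind a copy of themselves on a neighbouring cell, while CD48 is the ligand of CD244 and, more weakly, of CD2. The tails of most members carry tyrosine motifs that recruit the small adaptors SAP and EAT-2 or, in their absence, phosphatases. SLAMF8 and SLAMF9 have short tails without those motifs. In macrophages SLAMF7 is known for helping phagocytosis together with the integrin CD11b/CD18, and SLAMF8 for restraining the phagocyte NADPH oxidase.

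The libraries came from wild-type DC2.4 cells, an immortalised line of dendritic origin, in 4 groups of 3. In the first group, activated T cells were the source of the vesicles (ATEV, 15 µg/mL). The next group was given the same 15 µg/mL after pretreatment of the vesicles with Baseline-ZERO DNase, an enzyme that degrades DNA (DNase-treated ATEV). Another group was given vesicles of T cells that were not activated (NTEV, 30 µg/mL), and the control group phosphate-buffered saline (PBS). Vesicle amounts therefore differed between NTEV and both ATEV groups; the labels state 5 µg/mL of vesicle DNA beside the NTEV amount. Cells were replated a day after treatment and the procedure was done 3 times. Whether these were rounds on the same cells or separate experiments is not clear. The labels do not say whether replicates are separate cultures, so p-values measure the spread between these libraries, which may be technical. All values come from 1 cell line in culture, and the DNase-treated group has no control with mock-treated vesicles among the samples used here.

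Library totals were 19.4 to 30.4 M counts (1 M = 1e6). On the first principal component of the 2000 most variable genes (34.1% of the variance) the ATEV libraries lay at -23.8, -23 and -13.8 and the PBS libraries at 29.8, 23.8 and 14.6. The first DNase-treated library (20.4) and the first NTEV library (11.7) lay toward PBS, apart from the others of their groups (1.5 and -3.3, and -26.6 and -11.3). Values without these 2 libraries are given below wherever they change a call of a SLAM family gene or of Src, Itgam, Itgb2, Cyba, Cybb or Pik3c3. The 2 were picked after their positions were seen, and leaving out libraries that lie toward PBS can widen differences from PBS. Of 12 dendritic cell markers 7 had enough counts to be tested, among them Irf8 and Itgax, while Clec9a had 0 counts in every library. Their summed level was 335.3 to 395.3 CPM (counts per 1e6 after TMM scaling, which adjusts for library size and composition) with ATEV, 281.3 to 374.1 with DNase-treated ATEV, 242 to 275.5 with NTEV and 289.6 to 320.8 with PBS. That sum mixes markers that differed in opposite directions. For ATEV over PBS the log2 fold change was 0.55 for Irf8 and 1.29 for Itgax (edgeR adjusted p = 0.0322 and 0.0116). It was -2.75 for Cd24a (edgeR adjusted p = 0.000121), a further marker of this list. The 8 macrophage markers were all tested, and their summed level was 4614 to 7576 CPM with ATEV, 3197 to 3437 with DNase-treated ATEV, 4779 to 5423 with NTEV and 3327 to 3987 with PBS. Of 13 T cell markers 3 were tested, and Cd3e and Cd8a stood at 0 in all libraries. Their sum, mostly Cd28, was 44.7 to 63.7 CPM with ATEV, 55.9 to 62.3 with DNase-treated ATEV, 36.2 to 53.9 with NTEV and 60.2 to 102.6 with PBS. None of 5 B cell markers and 1 of 5 natural killer cell markers (Eomes, Ncr1 and Prf1 at 0) had enough counts.

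Upstream sequences are shown for the 3 receptors whose transcripts rose with ATEV, so that the start regions of Slamf7, Slamf8 and Slamf9 can be set side by side. All 9 genes lie on chromosome 1. RefSeq promoter windows of build GRCm38.p6, 250 bases before to 50 after the start, matched 5 of the 6 listed genes and 8 of the family's 9. The submitters' notes name mm9, so these coordinates were not joined to the counts. The 250 bases before each start are printed 5′ to 3′ on the gene's own strand. Slamf7 lies on the minus strand at chr1:171649000-171649249, and capitals mark a match to the AP-1 motif TGANTCA. Slamf8, also on the minus strand, is at chr1:172590569-172590818, with a match in capitals to the interferon-response motif, which runs on the opposite strand. Slamf9 is on the plus strand at chr1:172475110-172475359, and capitals mark the PU.1 motif GAGGAAGT.
Slamf7: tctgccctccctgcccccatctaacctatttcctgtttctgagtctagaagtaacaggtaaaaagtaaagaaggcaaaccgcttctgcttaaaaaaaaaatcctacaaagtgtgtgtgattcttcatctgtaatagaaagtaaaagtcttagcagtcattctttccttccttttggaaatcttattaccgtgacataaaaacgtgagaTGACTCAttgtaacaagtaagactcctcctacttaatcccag
Slamf8: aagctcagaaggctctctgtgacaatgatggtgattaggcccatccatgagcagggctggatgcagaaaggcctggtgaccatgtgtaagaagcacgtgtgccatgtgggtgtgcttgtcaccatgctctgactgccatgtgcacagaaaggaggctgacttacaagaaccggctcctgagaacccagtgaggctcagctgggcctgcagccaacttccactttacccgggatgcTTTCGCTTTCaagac
Slamf9: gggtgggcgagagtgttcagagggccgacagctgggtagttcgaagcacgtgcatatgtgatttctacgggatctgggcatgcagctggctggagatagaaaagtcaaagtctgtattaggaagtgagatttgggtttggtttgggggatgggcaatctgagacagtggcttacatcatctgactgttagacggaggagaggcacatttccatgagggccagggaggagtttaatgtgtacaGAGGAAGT

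In total 6 motifs were searched on both strands of each window. The interferon-response motif was held by 3.49% of the 27025 promoters in the table and, within the family, by Slamf8 at positions -15 to -6 from the start (TTTCGCTTTC as read on the gene's strand). The NF-kB motif, present in 0.385% of all promoters, also matched Slamf8, at +37 to +46. TGANTCA, found in 7.93% of promoters, matched Slamf7 (-42 to -36), Slamf8 (+10 to +16), Cd84 (-229 to -223) and Cd244a (-122 to -116). GAGGAAGT, in 3.28% of promoters, matched Slamf9 directly before its start (-8 to -1). The ETS-IRF composite motif (2.79% of promoters) and the STAT motif TTCNNNGAA (8.47%) had no match in the 8 family windows. None of the matches overlapped another. A match is a run of letters, and binding was not measured.

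The comparison of ATEV with PBS shows how the receptors stood after exposure to vesicles of activated T cells. Slamf7, Slamf8 and Slamf9 rose, by 12.5-fold, 14.5-fold and 3.17-fold. Cd84 and Ly9, much more abundant receptors, did not pass the test, and Cd48 had too few counts to be tested. A gene was called at an adjusted p under 0.05 (edgeR quasi-likelihood test, Benjamini-Hochberg over the 13261 genes tested), two-sided throughout. The 3 called were out of 5 listed genes tested, with a median log2 fold change of 1.66, against 4.74% of all tested genes called, 3.32% called higher, and a median over all genes of 0.03. Slamf8 passed the filter on low counts only through its ATEV libraries, so its place among the 5 depends on the result. The libraries of the ATEV and PBS groups did not overlap for any of the 5, as was so for 33.1% of all genes. In bulk RNA, a change in how many cells hold a transcript and a change in transcript per cell cannot be told apart.

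**Figure D1:**
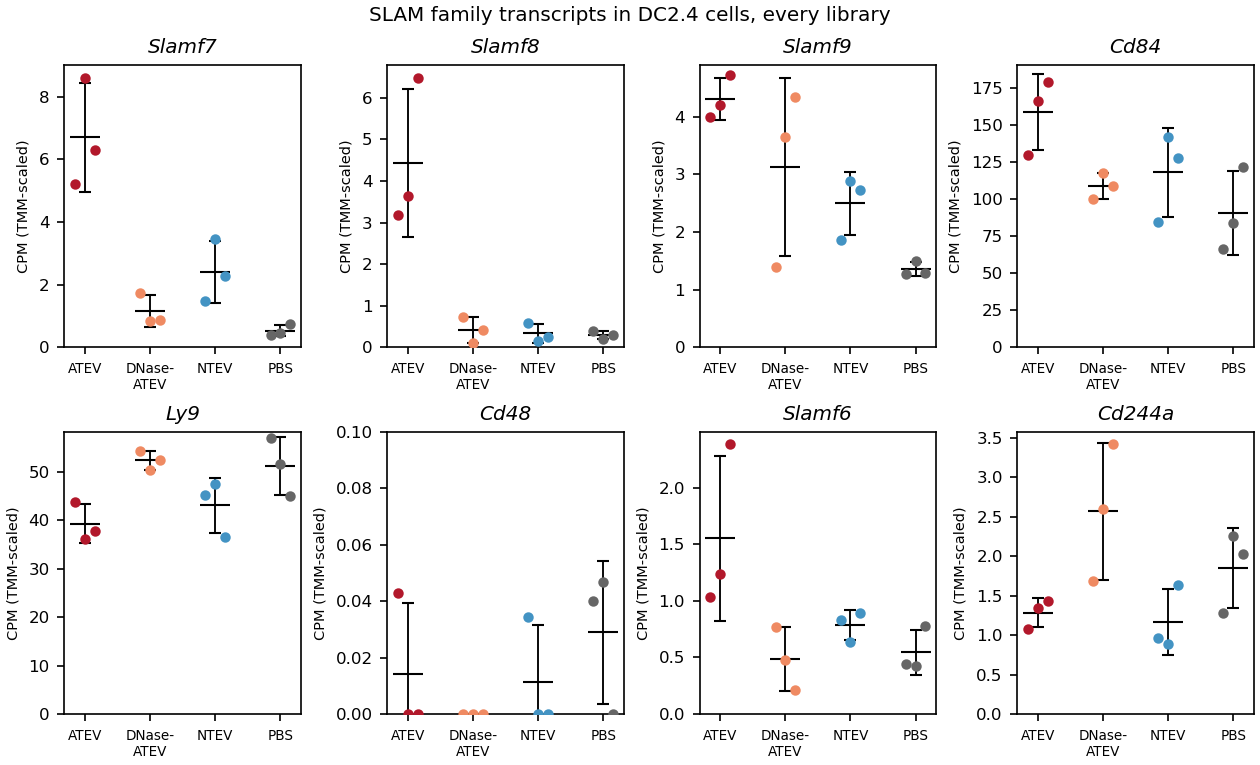
Level of 8 SLAM family transcripts in every library, as TMM-scaled CPM on a linear axis; points are libraries, the long bar is the group mean and the whiskers are 1 SD (n = 3). Slamf7 and Slamf8 are highest in the 3 ATEV libraries, whereas Ly9 is at 36.1 to 43.8 CPM with ATEV and 44.9 to 56.9 with PBS; Slamf1, with 12 counts in all libraries together, is not drawn.

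Slamf7 encodes a self-binding receptor of natural killer cells, plasma cells and activated myeloid cells. It had 121, 180 and 119 counts in the ATEV libraries, 36, 18 and 21 with DNase-treated ATEV, 43, 86 and 46 with NTEV and 10, 10 and 17 with PBS. The ATEV libraries were above every other library and the PBS libraries below every other, while on the scaled level NTEV and DNase-treated libraries overlapped. As scaled levels these were 6.71 ± 1.73 CPM with ATEV, 1.15 ± 0.502 with DNase-treated ATEV, 2.41 ± 0.985 with NTEV and 0.534 ± 0.176 with PBS (mean ± SD, n = 3). By log2 fold change Slamf7 was 3.64 ± 0.41 (SE) higher with ATEV than with PBS (edgeR adjusted p = 0.000278, 95% interval 2.76 to 4.52). It was called in all 11 alternative settings (adjusted p up to 0.00438). It also rose with NTEV against PBS, by 2.16 ± 0.41 on the log2 scale or 4.46-fold (edgeR adjusted p = 0.0194). This NTEV call was lost when any of NTEV replicates 2 and 3 or PBS replicates 1, 2 and 3 was left out (adjusted p up to 0.0921), and with only both groups in the fit (0.0768). Without the first NTEV and first DNase-treated libraries, which lay toward PBS, it was 2.44 (edgeR adjusted p = 0.00214), a difference that their removal can widen. An antisense gene, Gm37787, overlaps Slamf7 exons, and the strand setting behind the counts is not given.

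Slamf8 encodes a myeloid receptor with a short tail. Its counts were 74, 76 and 122 with ATEV, 15, 2 and 10 with DNase-treated ATEV, 17, 4 and 5 with NTEV and 10, 4 and 7 with PBS. The ATEV libraries lay far above the rest, and the other groups overlapped one another. Levels were 4.43 ± 1.78 CPM with ATEV, 0.411 ± 0.314 with DNase-treated ATEV, 0.332 ± 0.225 with NTEV and 0.296 ± 0.106 with PBS (mean ± SD, n = 3). The gene passed the filter on low counts (over 0.454 CPM in at least 3 libraries) only through the ATEV group, where it is high, so without that group it would not have been tested. The log2 fold change of ATEV over PBS was 3.86 ± 0.56 (SE, edgeR adjusted p = 0.00151, 95% interval 2.66 to 5.05), and was called in all 11 alternative settings (adjusted p up to 0.0162). With NTEV it was 0.19 ± 0.66 against PBS (edgeR adjusted p = 0.898), with a wide interval from -1.22 to 1.60. Each of these groups held fewer than 30 counts in its 3 libraries together, and the NTEV libraries were uneven (17, 4 and 5).

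Slamf9, whose product is a short-tailed receptor of macrophages and dendritic cells, varied little within ATEV and within PBS. It had 93, 88 and 89 counts with ATEV, 29, 77 and 104 with DNase-treated ATEV, 54, 72 and 55 with NTEV and 32, 32 and 30 with PBS. The DNase-treated libraries spanned the range, the first lying beside PBS and the third beside ATEV. Levels were 4.31 ± 0.369 CPM with ATEV, 3.13 ± 1.54 with DNase-treated ATEV, 2.49 ± 0.551 with NTEV and 1.36 ± 0.125 with PBS (mean ± SD, n = 3). The rise with ATEV over PBS was 1.66 ± 0.35 on the log2 scale (SE, edgeR adjusted p = 0.0191). Leaving out ATEV replicate 2, ATEV replicate 3 or any of PBS replicates 1, 2 and 3 ended the call (adjusted p 0.0614 to 0.0829), while the log2 fold change stayed between 1.61 and 1.75.

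Cd84 and Ly9 encode self-binding receptors of many leukocytes, and they were the abundant ones. Per kilobase of exon, averaged over all libraries, Cd84 stood at 19.0 and Ly9 at 14.04 CPM, followed by Slamf9 at 2.15, Slamf7 at 0.59, Slamf8 at 0.444 and Cd48 at 0.0115. Within ATEV libraries the order was Cd84 (25.3 CPM per kilobase), Ly9 (11.9), Slamf9 (3.28), Slamf7 (1.47) and Slamf8 (1.44), the last 2 of which do not differ beyond their spread. In PBS Ly9 (15.5) and Cd84 (14.4) were close, followed by Slamf9 (1.03), Slamf7 (0.117) and Slamf8 (0.096).

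Cd84 was at 129.8, 166.4 and 179.3 CPM with ATEV, at 100.1, 117.4 and 109.1 with DNase-treated ATEV, at 84.2, 141.6 and 128 with NTEV and at 66.4, 83.6 and 121.7 with PBS. The ATEV libraries lay above the PBS libraries, with the third PBS library close to the lowest of them. The log2 difference of 0.81 ± 0.23 (SE, 95% interval 0.32 to 1.29) gave an edgeR adjusted p of 0.0566. It passed with DESeq2 (adjusted p = 0.0119), with no filter (0.00257), with only both groups (0.0341), without ATEV replicate 1 (0.042) and without PBS replicate 3 (0.0279).

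Ly9 differed in the other direction, at 43.8, 36.1 and 37.9 CPM with ATEV, 54.2, 50.3 and 52.5 with DNase-treated ATEV, 45.1, 47.5 and 36.6 with NTEV and 56.9, 51.6 and 44.9 with PBS. The ATEV libraries lay below those of PBS by a small margin. The log2 difference was -0.38 ± 0.13 (SE, edgeR adjusted p = 0.101). Ly9 and Cd244a overlap on opposite strands but share no exon.

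Cd48, the ligand gene of the family, had 1 count with ATEV, 0 with DNase-treated ATEV, 1 with NTEV and 2 with PBS, each summed over 3 libraries. With 4 counts in all it was at or under the floor of 3 counts in each group, and no fold is given.

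Slamf6, an unlisted self-binding receptor, had 24, 26 and 45 counts with ATEV, 16, 10 and 5 with DNase-treated ATEV, 24, 16 and 18 with NTEV and 11, 9 and 18 with PBS. Its log2 difference was 1.49 ± 0.45 for ATEV over PBS (edgeR adjusted p = 0.0716) and 1.68 ± 0.46 for ATEV over DNase-treated ATEV (edgeR adjusted p = 0.108). Both passed with DESeq2 (0.035 and 0.0364), with no filter (0.0254 and 0.0278) and without ATEV replicate 1 (0.0493 and 0.0471). Cd244a, the receptor of CD48, had 25, 28 and 27 counts with ATEV, 35, 55 and 82 with DNase-treated ATEV, 28, 22 and 33 with NTEV and 32, 48 and 47 with PBS. It did not pass in any comparison, and the ATEV libraries lay below the DNase-treated ones (log2 difference -1.01 ± 0.34, edgeR adjusted p = 0.193). Slamf1 had 3 counts with ATEV, 3 with DNase-treated ATEV, 6 with NTEV and 0 with PBS.

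**Figure D2:**
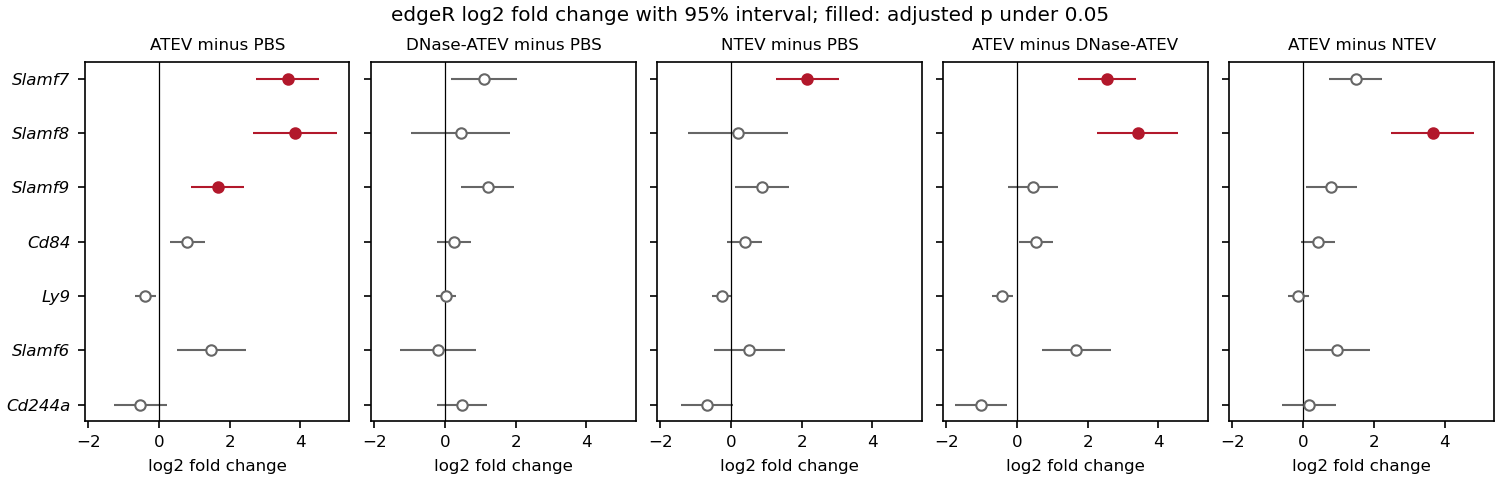
Log2 fold change with its 95% interval for 7 SLAM family genes in each of 5 comparisons, filled where the edgeR adjusted p is under 0.05. Slamf8 lies at 3.86, 3.41 and 3.67 in the 3 comparisons with ATEV on top, and at 0.45 and 0.19 for DNase-treated ATEV and NTEV over PBS.

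The comparison of ATEV with DNase-treated ATEV sets the same 15 µg/mL of vesicles with and without DNase pretreatment against each other. Slamf7 and Slamf8 were higher with intact ATEV, by 5.81-fold and 10.6-fold, while Slamf9, Cd84 and Ly9 did not pass. The 2 called were out of 5 tested, against 1.46% of all genes called and 1.32% called higher. Again Slamf8 was among the 5 only because it is high with ATEV. For 4 of the 5 the groups did not overlap, as for 20.2% of all genes, and the member median log2 fold change was 0.54, against 0.00 for all genes. The log2 difference was 2.54 ± 0.38 for Slamf7 (SE, edgeR adjusted p = 0.00371, 95% interval 1.73 to 3.35). For Slamf8 it was 3.41 ± 0.54 (SE, edgeR adjusted p = 0.00497, 95% interval 2.25 to 4.57). Both calls were kept in all 12 alternative settings, with adjusted p up to 0.0359 and 0.037. Slamf9 gave 0.46 ± 0.33 with an interval from -0.26 to 1.17 (edgeR adjusted p = 0.527), and its groups overlapped. Cd84 (0.54 ± 0.23, adjusted p = 0.277) and Ly9 (-0.42 ± 0.13, adjusted p = 0.17) were separated between these libraries without passing edgeR.

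DNase-treated ATEV against PBS gave 0 called genes of 13261 with edgeR (0% called, 0% called higher), although 791 genes had an unadjusted p under 0.05 and DESeq2 called 35. For the listed receptors, edgeR and DESeq2 called 0. Unadjusted p was under 0.05 for Slamf7 (0.0243) and Slamf9 (0.00434). Slamf7 was 1.10 ± 0.43 higher on the log2 scale (edgeR adjusted p = 0.772), and it alone of the 5 had groups that did not overlap, as did 13.4% of all genes. Slamf9 was 1.21 ± 0.35 higher (edgeR adjusted p = 0.612). Without the first NTEV and the first DNase-treated library Slamf9 passed, at 1.57 (edgeR adjusted p = 0.0234). Both libraries were picked after they were seen to lie toward PBS, so this fit is no independent test of a difference from PBS. The member median was 0.45 against 0.00 over all genes.

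NTEV against PBS called 1 of the 5 tested receptors, Slamf7 as given above, against 2.31% of all genes (1.7% higher). Groups did not overlap for Slamf7 and Slamf9, as for 23.8% of all genes, and the member median was 0.38 against 0.00. Slamf9 was 0.87 ± 0.35 higher on the log2 scale (edgeR adjusted p = 0.201). It passed, at 1.06, without the first NTEV and first DNase-treated libraries (edgeR adjusted p = 0.0135). That fit, too, leaves out libraries picked after they were seen to lie toward PBS. Cd84 differed by 0.38 ± 0.23 (edgeR adjusted p = 0.373) and Ly9 by -0.25 ± 0.13 (edgeR adjusted p = 0.327).

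ATEV against NTEV compares 15 µg/mL with 30 µg/mL of vesicles, so activation and vesicle amount cannot be told apart. Slamf8 was 12.7-fold higher with ATEV, a log2 difference of 3.67 ± 0.54 (SE, edgeR adjusted p = 0.00355), and passed in all 12 alternative settings (adjusted p up to 0.0307). It was the 1 call among 5 tested receptors, against 0.935% of all genes called and 0.875% called higher. As it was tested only because it is high with ATEV, this count is not independent of the result. Slamf7 was 2.79-fold higher without passing (1.48 ± 0.35, edgeR adjusted p = 0.0824). It passed with DESeq2 (0.00506), with no filter (0.00425), without ATEV replicate 1 (0.0481) and without NTEV replicate 2 (0.041). Groups did not overlap for Slamf7, Slamf8 and Slamf9 (0.79 ± 0.33, edgeR adjusted p = 0.336), as for 15.8% of all genes. The member median was 0.79 against -0.01 over all genes. Cd84 (0.43 ± 0.22, adjusted p = 0.423) and Ly9 (-0.13 ± 0.13, adjusted p = 0.677) did not pass edgeR. The comparisons share the ATEV or the PBS libraries, so their values are not separate evidence.

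Set side by side, the order of levels was ATEV, NTEV, DNase-treated ATEV and PBS for Slamf7, and the neighbours NTEV and DNase-treated ATEV overlapped. For Slamf8 ATEV stood above the 3 other groups, whose means did not differ beyond their spread. For Slamf9 the order was ATEV, DNase-treated ATEV, NTEV and PBS, where the DNase-treated libraries overlapped every other group and ATEV, NTEV and PBS were clear of one another. For Cd84 ATEV lay above DNase-treated ATEV and PBS, while NTEV overlapped every group. For Ly9 the order was DNase-treated ATEV (52.3 ± 1.95 CPM), PBS (51.1 ± 5.97), NTEV (43.1 ± 5.71) and ATEV (39.3 ± 4.02).

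**Figure D3:**
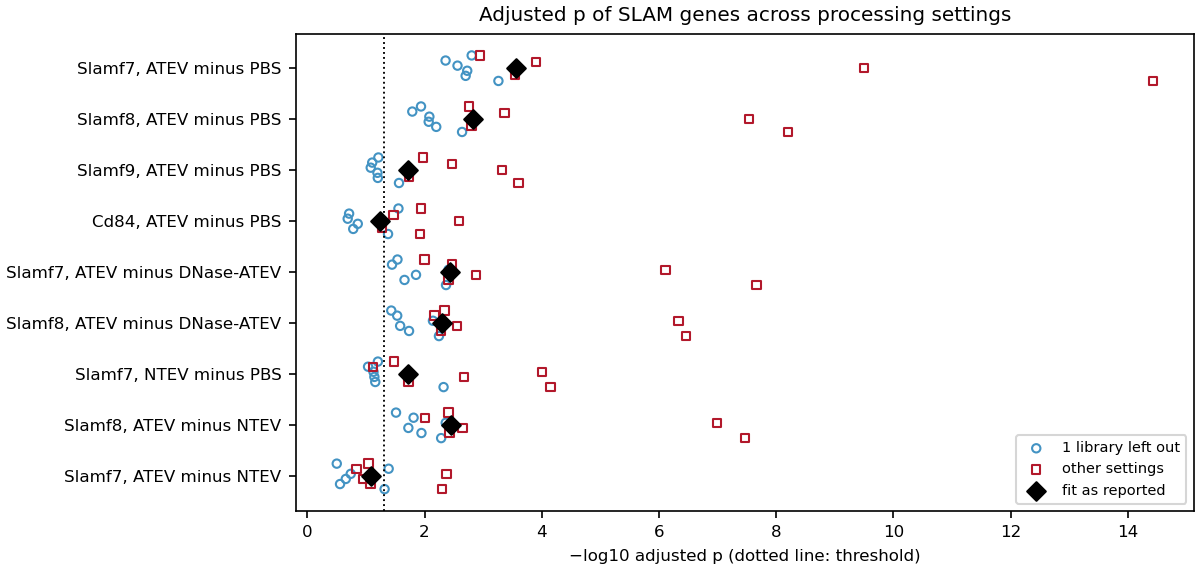
Adjusted p on a negative log10 axis for 9 gene and comparison pairs under the reported fit (diamond), fits with 1 library left out (circles) and the other settings (squares); the dotted line is the threshold of 0.05. Slamf7 and Slamf8 stay right of the line for ATEV against PBS and against DNase-treated ATEV, while Slamf9 for ATEV against PBS crosses it in 5 of 6 fits with 1 library left out.

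The adaptors through which SLAM receptors signal were nearly undetected. Sh2d1a, which encodes SAP, and Sh2d1b1, an EAT-2 gene, had 0 counts in all 12 libraries, and Sh2d1b2, the other EAT-2 gene, had 1. Of the 15 adaptor and signalling genes described 12 were tested, and edgeR called 1 higher with ATEV over PBS and 0 lower (median log2 fold change -0.06). That is 1 of 12, beside 4.74% of all genes called and 3.32% called higher, and DESeq2 called Plcg2 as well.

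Src, a tyrosine kinase at the membrane, was at 5.34, 5.16 and 3.29 CPM with ATEV, 1.88, 2.46 and 2.63 with DNase-treated ATEV, 3.35, 6.01 and 6.17 with NTEV and 1.56, 1.502 and 0.603 with PBS. The ATEV and NTEV libraries lay together above the rest. Src rose with ATEV over PBS (1.91 ± 0.36, edgeR adjusted p = 0.0108) and with NTEV over PBS (2.07 ± 0.36, edgeR adjusted p = 0.0142). The NTEV call was lost without PBS replicate 2, PBS replicate 3 or NTEV replicate 3 (adjusted p up to 0.0695), and with only the 2 groups in the fit (0.0768). The phosphatases Ptpn6 and Inpp5d, which bind SLAM tails when the adaptors are missing, were abundant and not called. Ptpn6 averaged 278.4 CPM with ATEV and 330.5 with PBS, and Inpp5d 186.6 with ATEV and 178.1 with PBS. The comparisons of DNase-treated ATEV with PBS, ATEV with DNase-treated ATEV and ATEV with NTEV gave 0 calls among the 12 by edgeR and 0 by DESeq2, with 2, 1 and 1 at an unadjusted p under 0.05. Over all 13261 genes edgeR called 0%, 1.46% and 0.935%, and 791, 2012 and 1775 had an unadjusted p under 0.05.

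Partners in ligand binding and phagocytosis numbered 8, with 7 tested. Itgam and Itgb2, the subunits of the integrin CD11b/CD18 with which SLAMF7 is known to work, rose with ATEV over PBS, and none fell (list median 0.29). These are 2 of 7, beside 4.74% of all genes called and 3.32% called higher. Itgb2 was at 248.7, 332.1 and 272.6 CPM with ATEV, 194.9, 164.3 and 182.3 with DNase-treated ATEV, 256.9, 259.6 and 323.4 with NTEV and 188.3, 180.6 and 188.9 with PBS. The ATEV and NTEV libraries shared a range above the others. Its log2 fold change was 0.61 ± 0.14 over PBS (edgeR adjusted p = 0.0267) and 0.66 over DNase-treated ATEV (edgeR adjusted p = 0.0315), and 0.59 for NTEV over PBS (edgeR adjusted p = 0.0435). Itgam averaged 134.1 CPM with ATEV, 114.3 with DNase-treated ATEV, 137 with NTEV and 94.2 with PBS. It was 0.51 ± 0.13 higher with ATEV than PBS (edgeR adjusted p = 0.0435) and 0.54 higher with NTEV than PBS (edgeR adjusted p = 0.048).

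These integrin calls were lost in several settings. For ATEV over PBS, Itgb2 lost its call without ATEV replicate 2 or any 1 of the PBS replicates 1, 2 and 3 (adjusted p up to 0.125), and Itgam lost it without ATEV replicate 1 or 2 or any 1 of those PBS libraries (up to 0.167). The Itgb2 call over DNase-treated ATEV was lost without ATEV replicate 2 or 3 or any 1 of DNase-treated replicates 1, 2 and 3 (up to 0.185). Both NTEV calls were lost without NTEV replicate 2 or 3 or any 1 PBS library (up to 0.221 for Itgb2 and 0.233 for Itgam). With only the 2 groups in the fit, the NTEV calls of Itgb2 (0.0918) and Itgam (0.103) and the Itgb2 call over DNase-treated ATEV (0.0946) were lost as well. The signalling chain genes Tyrobp and Fcer1g were not called, and Cd2, a further receptor for CD48, had 10 counts in all.

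**Figure D4:**
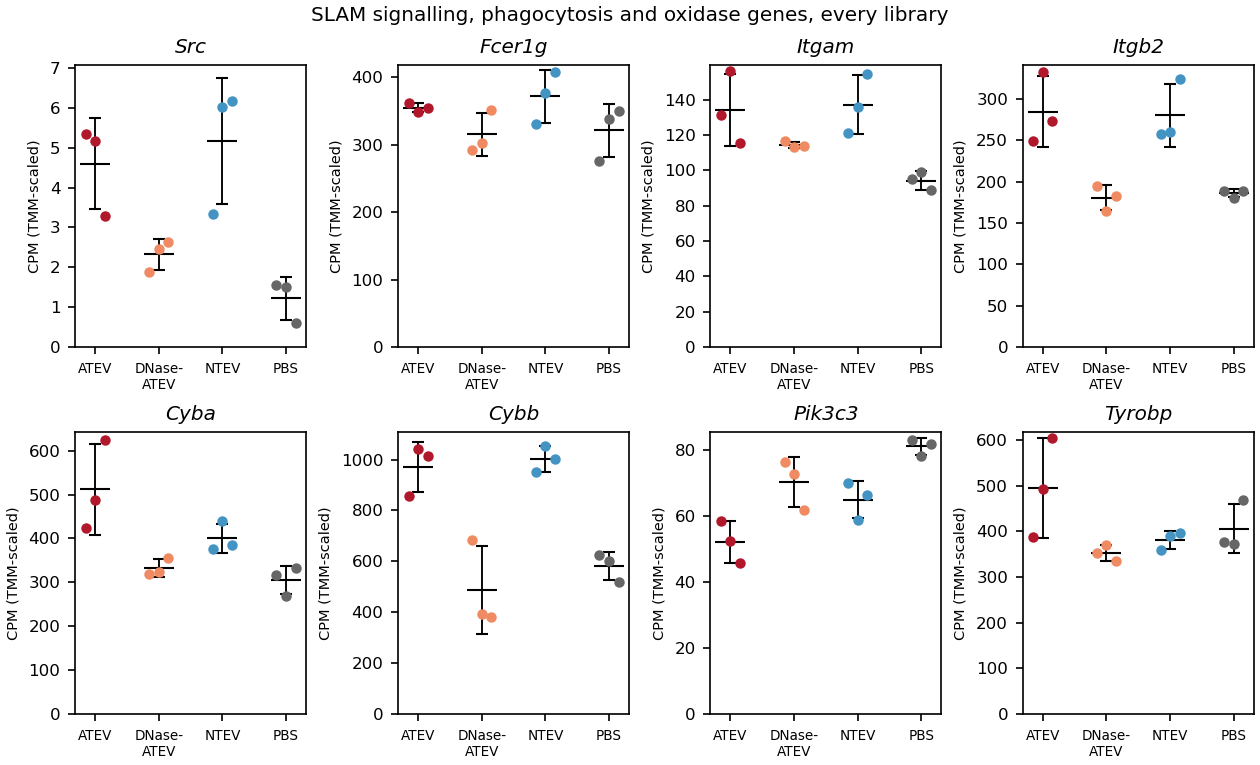
Level of 8 signalling, phagocytosis and oxidase genes in every library, as TMM-scaled CPM on a linear axis; points are libraries, the long bar the group mean and the whiskers 1 SD (n = 3). Src is at 3.29 to 5.34 CPM with ATEV and 0.603 to 1.56 with PBS, and Cybb is high with both ATEV and NTEV.

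All 9 genes of the phagocyte oxidase and its phagosome recruitment, the machinery that SLAMF8 and SLAMF1 are known to affect, were tested. Of these edgeR called 1 higher and 1 lower with ATEV over PBS (median 0.10), beside 3.32% of all genes called higher and 1.42% called lower. Cyba, the small membrane subunit, was at 422.6, 488 and 624.7 CPM with ATEV and 316.2, 269.8 and 331.6 with PBS, 0.74 ± 0.15 higher on the log2 scale (edgeR adjusted p = 0.0157). That call was lost without PBS replicate 1 or 2 (adjusted p up to 0.1). Pik3c3, the lipid kinase that acts with Becn1, was at 58.3, 52.4 and 45.5 CPM with ATEV and 83.0, 78.2 and 81.7 with PBS, and fell by 0.64 ± 0.13 on the log2 scale (edgeR adjusted p = 0.0131). Its call was lost without ATEV replicate 2 or 3 or PBS replicate 1 or 2 (adjusted p up to 0.058).

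Cybb, the catalytic subunit, was at 857.5, 1042 and 1014 CPM with ATEV, 685.8, 393.5 and 381.5 with DNase-treated ATEV, 950.9, 1052 and 1001 with NTEV and 625.1, 600.7 and 518.6 with PBS. ATEV and NTEV libraries lay together above the rest. It was the 1 gene of this list that edgeR called between ATEV and DNase-treated ATEV (1.00 ± 0.20, edgeR adjusted p = 0.0239), beside 1.46% of all genes called. That call was lost without ATEV replicate 2 or 3 or DNase-treated replicate 2 or 3 (up to 0.143) and with only both groups fitted (0.0739). In the comparison of ATEV with DNase-treated ATEV Cyba passed with DESeq2 (adjusted p = 0.00606), with no filter (0.0307) and without ATEV replicate 1 (0.0206), and Pik3c3 passed with DESeq2 (0.0398). DESeq2 called 495 of all genes there. Against PBS Cybb did not pass with ATEV (0.74 ± 0.20, edgeR adjusted p = 0.0511) or with NTEV (0.785, edgeR adjusted p = 0.0584). The ATEV difference passed with DESeq2 (0.0108), with no filter (0.00562), with only both groups (0.0153) and without ATEV replicate 1 (0.0457). The NTEV difference passed with DESeq2 (0.00789), with no filter (0.00345), without NTEV replicate 1 (0.0291) and, at 0.83, without the first NTEV and first DNase-treated libraries (0.00386). Leaving out the first NTEV library, which lay toward PBS, can widen a difference from PBS. For the 9 oxidase genes edgeR called 0 with NTEV against PBS (4 at an unadjusted p under 0.05, and 1 by DESeq2, Cybb). It called 0 with ATEV against NTEV (2 unadjusted, 0 by DESeq2) and 0 with DNase-treated ATEV against PBS (0 unadjusted, 0 by DESeq2). The summed macrophage markers given above were higher in ATEV and NTEV libraries too, the groups in which Slamf7, Src and Itgb2 were called against PBS, and their part in these results was not tested.

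The family is split in 2 places on chromosome 1. Cd244a, Ly9, Slamf7, Cd48, Slamf1, Cd84 and Slamf6 follow one another in RefSeq order with the pseudogene Tma7-ps among them, and Slamf9 and Slamf8 bracket 4 other genes further along. Neighbours around the first cluster, with Tma7-ps counted, included 6 tested genes of 11 and around the second 5 of 14. Of these 11 tested neighbours edgeR called 0 in each of the 5 comparisons. With shares of 0% to 4.74% over all genes, 0 of 11 does not set the neighbours apart. An unadjusted p under 0.05 was reached by 2 in ATEV over PBS (Usf1 and Copa), 0 in DNase-treated ATEV over PBS, 1 in NTEV over PBS, 2 in ATEV over DNase-treated ATEV and 2 in ATEV over NTEV, and DESeq2 called 1 neighbour, Usf1, in ATEV over NTEV and 0 in the others. For ATEV over PBS their log2 fold changes ran from -0.32 to 0.35 (median 0.01) and from -0.15 to 0.60 (median 0.10). Within the first cluster Slamf7 was called beside Ly9, which was lower in each ATEV library than in each PBS library without passing, and Cd48, which was nearly undetected. Tagln2 and Igsf9, which lie between Slamf9 and Slamf8, differed by -0.08 ± 0.25 (edgeR adjusted p = 0.861) and 0.60 ± 0.38 (edgeR adjusted p = 0.33).

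**Figure D5:**
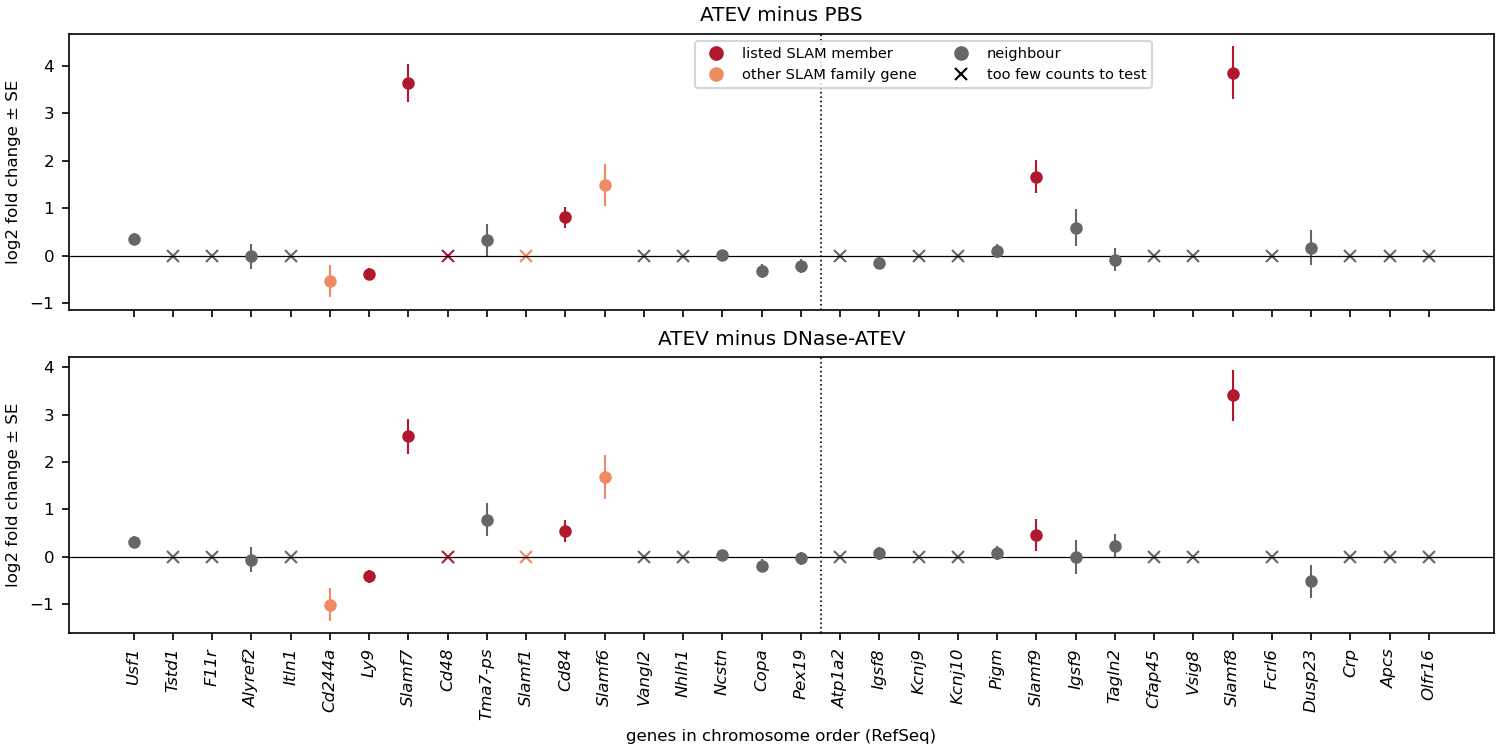
Log2 fold change with its SE for the SLAM family genes and their neighbours in RefSeq chromosome order, with ATEV over PBS above and ATEV over DNase-treated ATEV below; the dotted line parts the 2 gene groups, spacing is not to scale, and crosses on the zero line are genes with too few counts, for which no value is drawn. Slamf7 (3.64) and Slamf8 (3.86) stand above neighbours that lie between -0.32 and 0.60 in the upper panel.

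The genes whose log2 CPM most resembled each receptor over the 12 libraries were ranked by Pearson correlation, as a description; all points share the libraries and their groups. Slamf8 was nearest to the interferon-inducible genes Ifi47 (r = 0.977), Ly6a (0.971), Gbp5 (0.97), Ifi211 (0.964) and to Serpina3g (0.962). After removal of group means these stayed between 0.738 and 0.828. Slamf7 was nearest to Gsap (0.954), H2-D1 (0.953), Trim34a (0.953), H2-M3 (0.951) and Tapbp (0.949), with 0.433 to 0.766 within groups. Slamf9 was nearest to Muc1 (0.947), Crem (0.936), Nudt22 (0.935), Itgal (0.935) and Selenow (0.924).

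Cd84 was nearest to the zinc finger genes Zfp429 (0.975) and Zfp958 (0.959), then Fbxl5, Tmem50a and Nck1. Ly9 was nearest to Tyw1, Ccar1, Pigb, Cep63 and Dnajc7, at 0.906 to 0.911. Between receptors, Slamf7 and Slamf8 had r = 0.75 over 12 libraries and 0.01 within groups. Cd84 and Slamf7 had 0.83 over all and 0.62 within groups, and Cd84 and Ly9 had -0.76 over all.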

How the data were processed

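Stranded mRNA libraries, 12 in all, were sequenced. Whole-number counts per gene were deposited by the authors with no normalization visible in the values. Per the submitters' processing notes, bcl2fastq 2.19, TopHat2 2.0.11, TopHat, Cufflinks 2.1.1 and mm9 were used; the counter, annotation and strand setting are not given in the sources used here. Counts of genes that overlap, antisense ones included, are therefore uncertain. Of 42687 identifiers 42250 matched GENCODE M21 symbols and 437 did not. Groups and replicate numbers come from the labels.

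The analysis used edgeR 4.0.16 under R 4.3.3, with limma 3.58.1 loaded by it. filterByExpr (minimum count 10, minimum total 15) kept 13261 genes, 5 of the 6 listed ones. Libraries were scaled by TMM. The 12 libraries entered 1 quasi-likelihood fit with group means (common coefficient of biological variation 0.183), from which 5 contrasts were drawn and tested two-sided, with Benjamini-Hochberg adjustment over all tested genes. Standard errors come from the F statistic. Correlations used log2 CPM with a prior count of 2. Levels per kilobase use exon lengths of GENCODE M21. The test was checked on simulated counts, but no outcome is given here, so this check does not bear on the calls.

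The members, lists, motifs and tests were chosen with earlier results of these data known. Named genes are the members in every contrast. From each list, those called in ATEV against PBS or against DNase-treated ATEV and a few abundant ones are named. The nearest neighbours that RefSeq lists as protein-coding are named too, and Tma7-ps, a pseudogene by its name, is among them. So are the 5 genes most like each member, leaving out predicted genes and clone names. A listed item is not reported here. Alternatives were RLE scaling, DESeq2 1.42.0, no filter, only the groups compared, a replicate block, leaving out each library and, added after seeing the data, leaving out the first NTEV and first DNase-treated libraries. Chi-square per degree of freedom between replicates was 13.6 to 119, and every library was kept as its own sample. Depth was 19.4 to 30.4 M counts. With few counts, precision is limited by counting error as well as by the spread between libraries.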

Additional observations from a re-analysis of the deposited data

How the results depend on the processing

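Over all genes, the 628 calls of ATEV against PBS became 1518 with DESeq2, 1317 with no filter, 1237 with only both groups, and 169 to 863 with 1 library left out. The 194 of ATEV against DNase-treated ATEV became 495, 394 and 76 to 521 (DESeq2, no filter, 1 library left out), and the 124 of ATEV against NTEV became 370, 242 and 70 to 287. DNase-treated ATEV against PBS had 0, with 35 under DESeq2, 47 with no filter, 19 without the first NTEV and first DNase-treated libraries, and 0 to 7 with 1 left out. NTEV against PBS had 306, with 839 under DESeq2, 876 with no filter, 26 with only both groups, 2249 without those 2 libraries and 31 to 1687 with 1 left out. Those 2 libraries were picked after they were seen to lie toward PBS, so leaving them out can widen differences from PBS. Among the listed receptors, ATEV against NTEV called 1, and 2 with DESeq2, 2 with no filter and 1 to 2 with 1 left out. DNase-treated ATEV against PBS called 0, and 1 without those 2 libraries. NTEV against PBS called 1, and 2 without those 2 libraries, 0 with only both groups and 0 to 1 with 1 left out. ATEV against PBS called 3, and 2 to 4 over all settings; ATEV against DNase-treated ATEV called 2 in every setting. The causes were not tested.

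The replicate numbers did not pair the libraries as a whole (6 of 18 same-numbered pairs correlated over 0.1, median 0.03, and 3 of 12 libraries correlated best with their own number). The first libraries of DNase-treated ATEV, NTEV and PBS did correlate. The values were 0.619 for DNase-treated ATEV with NTEV, 0.519 for NTEV with PBS and 0.44 for DNase-treated ATEV with PBS. ATEV replicate 1 went the other way, at -0.382, -0.322 and -0.158 with DNase-treated ATEV, NTEV and PBS. What they share was not tested. With a replicate block ATEV against PBS called 1440 genes and DNase-treated ATEV against PBS 1, and gains were Cd84 (log2 0.83, edgeR adjusted p = 0.0115) and Cybb (0.75, 0.038) for ATEV over PBS and Cyba (0.61, 0.0488) for ATEV over DNase-treated ATEV, while the Itgb2 and Itgam calls for NTEV over PBS were lost (both edgeR adjusted p = 0.0518). Among the SLAM family genes and Src, Itgam, Itgb2, Cyba, Cybb and Pik3c3, the block changed no other call. Other named genes, such as the cell type markers, were not followed through these settings.

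Among the genes followed through the settings, signs changed only for values not called. With 1 library left out, log2 differences of ATEV over NTEV ran from -0.007 to 0.465 for Cd244a, -0.098 to 0.037 for Cybb, -0.15 to 0.07 for Itgam, -0.10 to 0.14 for Itgb2 and -0.402 to 0.028 for Src. For DNase-treated ATEV over PBS they ran from -0.10 to 0.02 for Itgb2, -0.051 to 0.127 for Ly9, -0.69 to 0.18 for Slamf6 and -0.19 to 0.90 for Slamf8, and for NTEV over PBS from -0.55 to 0.53 for Slamf8. Without the first NTEV and first DNase-treated libraries, Slamf8 was at -0.17 for DNase-treated ATEV over PBS and -0.56 for NTEV over PBS, and Itgb2 at -0.035 for ATEV over NTEV. Low counts limit Slamf8 outside ATEV, Slamf6 and Cd48.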
